A study of Mus musculus with 12 samples.

Results

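Small nucleolar RNAs (snoRNAs) and small Cajal body RNAs (scaRNAs) were followed in kidneys of Smad3 wild-type and knockout mice. In the deposited noncoding transcript tables, 134 of 42452 transcripts had a database match whose text contained the word snoRNA or scaRNA, and these 134 are described here; a transcript not listed in a library was taken as 0 reads. The mice were C57BL/6J. Smad3 is a transcription factor that carries TGF-β signals, and the labels describe the knockout (KO) allele no further; wild type (WT) mice served for comparison. Kidneys of each genotype were normal and untreated, obstructed for 5 days by a tie around the ureter on the left (ureteral obstruction on 1 side, UUO), or affected by anti-GBM glomerulonephritis, which was induced with sheep antibody to mouse glomerular basement membrane at 60 µg per g of body weight after immunization with sheep IgG in adjuvant, on a scheme that names day 10. The treatment text mentions sham-operated controls for UUO and matched normal mice for nephritis, but the 2 normal groups are labelled untreated, and both diseases are compared with them. Each of the 6 groups had 2 libraries; the labels do not say that they came from separate animals, so p-values measure the spread between libraries. Ages are not given, and both sexes entered the UUO experiment. No transcript was matched to Smad3 itself, so the knockout could not be checked in these tables.

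Most snoRNAs of mammals are cut out of introns of host genes, many of which encode ribosomal proteins or translation factors. Box C/D snoRNAs guide 2′-O-methylation and box H/ACA snoRNAs guide pseudouridylation, mainly of ribosomal RNA, and a few act in cleavage of the ribosomal RNA precursor. The scaRNAs carry box C/D elements, box H/ACA elements or both, stay in Cajal bodies and guide the same modifications of spliceosomal RNAs.

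By the wording of the match or the gene symbol of the matched Ensembl transcript, 76 of the 134 transcripts were box H/ACA, 46 box C/D and 9 scaRNAs, and 3 could not be classed. For 65 of the transcripts a gene could be found in the GENCODE M1 annotation of NCBIM37 (the Ensembl name of the mm9 build). For 56 of these transcripts the gene lay within a host gene, and some transcripts shared a gene. The 4 sequences below belong to transcripts that carried main differences, 2 with ribosomal protein hosts and 2 of the most abundant short ones. Capitals mark the ACA box in the H/ACA RNAs, and the C box (TGATGA) and D box (CTGA) in the others, written 5′ to 3′ from NCBIM37 as DNA.

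Snora7a, intron of Rpl32, chr6:115757993-115758132, minus strand: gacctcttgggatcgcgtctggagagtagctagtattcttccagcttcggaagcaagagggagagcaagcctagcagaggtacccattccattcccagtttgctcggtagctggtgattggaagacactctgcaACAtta
Snora21, intron of Rpl23, chr11:97642953-97643089, minus strand: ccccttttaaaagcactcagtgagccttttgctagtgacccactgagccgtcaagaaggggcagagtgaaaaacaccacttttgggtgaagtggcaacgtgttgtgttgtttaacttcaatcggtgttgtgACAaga
Snord17, intron of Snx5, chr2:144091715-144091952, minus strand: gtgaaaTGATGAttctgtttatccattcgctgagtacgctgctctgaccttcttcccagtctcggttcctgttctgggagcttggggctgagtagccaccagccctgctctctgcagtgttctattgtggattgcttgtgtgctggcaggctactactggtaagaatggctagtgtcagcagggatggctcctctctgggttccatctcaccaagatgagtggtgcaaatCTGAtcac
Scarna6, intron of Atg16l1, chr1:89681131-89681395, plus strand: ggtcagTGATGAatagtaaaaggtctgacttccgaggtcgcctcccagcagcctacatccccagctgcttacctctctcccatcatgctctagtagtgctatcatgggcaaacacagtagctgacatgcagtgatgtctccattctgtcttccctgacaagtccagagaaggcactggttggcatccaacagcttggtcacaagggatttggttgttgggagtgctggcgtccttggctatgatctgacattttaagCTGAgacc

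The motifs were searched on the RNA strand only, and matches overlapping another motif were kept. ACA followed by 3 bases at the 3′ end was found in 19 of the 27 H/ACA genes placed, and in 18.2% of all 1552 snoRNA genes of the annotation. TGATGA within the first 20 bases together with CTGA within the last 12 bases was found in 9 of the 17 C/D genes placed, and in 16.9% of all 1552.

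The transcripts of the tables were mostly far longer than the snoRNAs they were matched to. RNAs over 150 bases had been selected on a gel, and the shortest transcript of the whole table had 150 bases. Of the 65 transcripts placed at a snoRNA gene, 59 were placed at a gene shorter than 150 bases. The median gene length over the 65 was 131 bases, with a gene shared by several transcripts counted for each. These transcripts were longer than the snoRNA in 61 cases and more than 3 times as long in 53. The 134 transcripts had a median of 1074 bases against 581 for all transcripts. Reads from the snoRNA, its host's exons and an overlapping antisense RNA cannot be told apart in such a transcript, since the use of strand in counting is not stated. Names are therefore those of the match, and a number after a name is the end of the transcript's identifier (6368 for ncRNA_aligned_6368). Only uniquely mapped reads were counted, 47 transcripts shared their database entry with another of the 134, and families of near-identical copies are uncertain.

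Each library held 4595261 to 7342937 reads, of which 0.885% to 1.81% lay on the 134 transcripts. Of the 134, 85 had reads in all 12 libraries, and 108 passed the low-count filter of the test; the 26 others had 1 to 107 reads over the 12 libraries together. In 3 libraries the reads covered little of each transcript: the covered length was 0.284 (KO UUO 1), 0.335 (KO anti-GBM 1) and 0.444 (WT UUO 1) of that of randomly placed reads, against 0.631 to 0.905 in the other 9. No normal and no WT anti-GBM library was among the 3, so low breadth goes with disease, and the calls of each comparison below are given with all 12 libraries and with the 9. Counts of groups without overlap are given with the 12 alone. The effective library sizes differed as well, with normalization factors from 0.736 to 1.63. Trimmed mean of M-values (TMM) scaling was used for CPM (counts scaled to library size) and scaling by total reads for the deposited RPKM (reads per kilobase of transcript, scaled to library total). A lookup of marker lists for kidney, myeloid cells, lymphocytes and fibroblasts, by match text or accession, found no gene. Elements of such genes listed under other names could have been missed. The part of cell composition in the results was not tested, and fewer cells of a type and less RNA per cell cannot be told apart in whole kidney.

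Per length, the most abundant of the 134 were Snord17 (5124), a box C/D guide for 28S ribosomal RNA, and Scarna10 (7810), also called U85, which guides modification of U5 spliceosomal RNA. Snord17 was the highest in 7 libraries and Scarna10 in 5. The deposited RPKM of Snord17 was 3349 and 1330 in WT normal, 6537 and 1523 in WT UUO, then 5924 and 6021 in WT anti-GBM, 4423 and 4477 in KO normal, 7381 and 1202 in KO UUO, and 8570 and 10714 in KO anti-GBM. For Scarna10 the RPKM was 3852 and 1791, 3389 and 1842, 3142 and 4867, 4175 and 6879, 4274 and 1358, and 4287 and 4734 in the same order. Both were covered over 98.9% to 99.6% of their length in every library. These replicates differed by up to several fold, most in UUO, where the library of low breadth was the higher one for both RNAs in each genotype.

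The next 10 by mean RPKM were 2 transcripts of Scarna6 (5108 and 975), Snora7a (7775), SNORD58 (5174), Snora70 (1083), Scarna2 (2290), scaRNA21 (986), Snora21 (849), SNORD36 (10996) and scaRNA16 (3794). Scarna2, which guides modification of U2 spliceosomal RNA, had an RPKM of 2922 in WT UUO 1, 1056 in KO UUO 1 and 931 in KO anti-GBM 1, and from 112 to 341 in the other 9 libraries. Its level was highest in exactly the 3 libraries of low breadth. Snora7a lies in an intron of the ribosomal protein gene Rpl32, and its transcript had 197, 285 and 262 RPKM in the same 3 libraries and from 816 to 1834 in the other 9. The orders of these 2 RNAs were thus opposite, with no overlap between the 3 libraries and the 9 in either. The 12 transcripts with most reads held 66.8% of all reads on the 134.

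**Figure D1:**
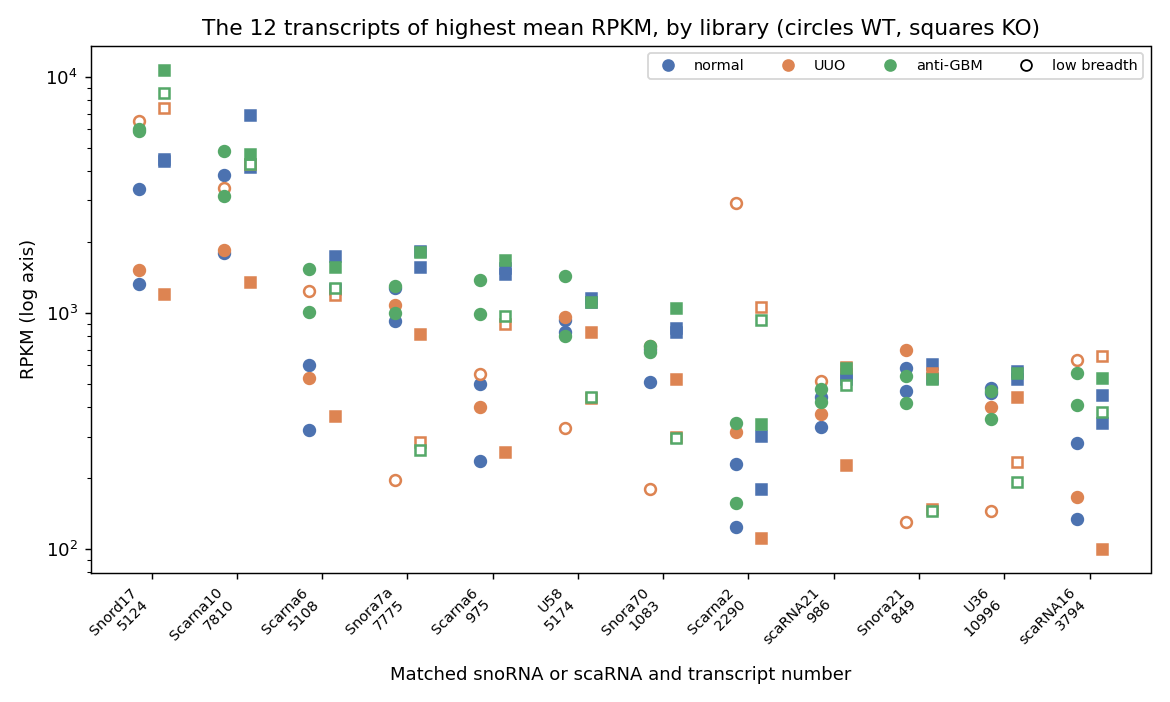
Deposited RPKM (log axis) of the 12 transcripts of highest mean RPKM, 1 point per library, circles for WT and squares for KO, colours for normal, UUO and anti-GBM, open symbols for the 3 libraries of low breadth. Snora7a, Snora70 and Snora21 are lowest in the open symbols, and Scarna2 is highest there.

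Ribosomal protein genes were the hosts of 19 of the 134 transcripts, in 12 genes, with 34.4% of all reads on the 134. In the 3 pairs with a library of low breadth, most of them were lower in that library. Their summed level was 6846 and 5631 CPM in WT normal, 684 and 3404 in WT UUO, then 4439 and 3040 in WT anti-GBM, 7448 and 7773 in KO normal, 874 and 4484 in KO UUO, and 1603 and 8271 in KO anti-GBM. The first library of each pair from UUO and KO anti-GBM is the one of low breadth, and there the sum was several times lower than in its partner. Among the 11 with at least 10 CPM on average, 9, 10 and 11 were lower in the library of low breadth than in its partner, for the WT UUO, KO UUO and KO anti-GBM pairs, with median log2 ratios of -2.27, -2.49 and -1.87. Over all 4305 transcripts of that level, the same medians were -0.01, -0.48 and -0.32. In the 3 pairs without such a library, the median of the 11 was between 0.07 and 0.54. Snora21 (849), an H/ACA RNA in an intron of Rpl23, had 126 against 611 CPM in WT UUO, 146 against 820 in KO UUO and 277 against 1012 in KO anti-GBM. The deposited Rfam column gives this transcript a signal recognition particle RNA match as well, so its identity is uncertain. Rfam matches to another RNA family also occur for other transcripts of the 134, among them SNORA72 (925) and SNORA14 (2356).

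For the 9 scaRNA transcripts the summed level was 2419 and 1253 CPM in WT normal, 2467 and 743 in WT UUO, then 1854 and 2038 in WT anti-GBM, 2955 and 4557 in KO normal, 2116 and 787 in KO UUO, and 3581 and 3970 in KO anti-GBM. All 8 scaRNA transcripts with at least 10 CPM were higher in the low-breadth UUO library than in its partner, in both genotypes, with median log2 ratios of 1.34 (WT) and 1.17 (KO). In KO anti-GBM 2 of the 8 were higher in it, with a median of -0.29. Replicates also parted where breadth was alike: all 8 were higher in WT normal 1 than in WT normal 2, with a median of 0.95, and all 8 were higher in KO normal 2 than in KO normal 1. Coverage differed with transcript length. The 12 transcripts of at most 500 bases and at least 10 CPM were covered over a median of 92.7% to 97.5% in every library, and the 44 longer ones over 37.5% to 52.5% in the 3 libraries of low breadth and 56.3% to 75.4% in the others. In level, 10 of the 12 short ones were higher in the low-breadth library of each UUO pair, with medians of 1.20 (WT) and 1.17 (KO), beside -0.65 and -0.81 for the 44. In KO anti-GBM both were lower in it, with medians of -0.92 and -1.36.

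**Figure D2:**
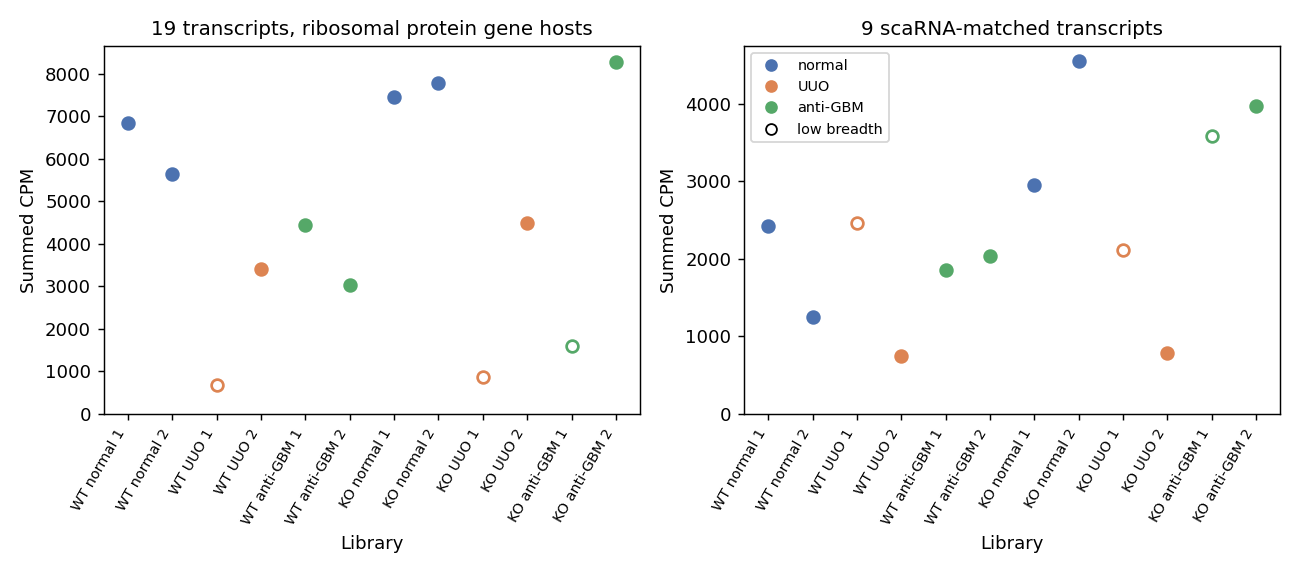
Summed CPM (TMM) of the 19 transcripts with ribosomal protein gene hosts (left) and of the 9 scaRNA transcripts (right), 1 point per library, open symbols for the 3 libraries of low breadth. The left sum is at most 1603 CPM in the open symbols and at least 3040 in the filled ones; the right sum shows no such order.

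RNase MRP RNA, an RNA enzyme of ribosomal RNA processing with a size near that of the short transcripts, was 1 of 4 genes found from a list of 24 noncoding snoRNA hosts and relatives. Its transcript (6544, 243 bases) had 13741 and 6659 CPM in WT normal, 32302 and 4790 in WT UUO, then 9452 and 9866 in WT anti-GBM, 16118 and 21847 in KO normal, 38876 and 4977 in KO UUO, and 81999 and 27375 in KO anti-GBM. It was higher in each library of low breadth than in its partner. Snhg12, Snhg5 and Rian were found at 0 to 3.07 CPM, and of this list only RNase MRP RNA and 1 Snhg12 transcript were tested; neither passed the test in any of the 9 comparisons (0 of 2 in each direction). None of the 10 protein partners of these RNAs was found in the tables.

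In normal kidney, the 2 Scarna6 transcripts and U17 were higher in KO than in WT. Scarna6, also called U88, is a scaRNA in an intron of Atg16l1. Transcripts 975 and 5108 were both placed at this gene by the symbol in the match alone, and cannot be taken as independent. The deposited Rfam column gives SCARNA6 for 975 but snR30 for 5108, as it does for the U17 transcript (2437). The identity of 5108 is therefore uncertain. Transcript 975 had 141 and 68.0 CPM in WT normal and 408 and 419 in KO normal. Transcript 5108 had 196 and 107 CPM in WT normal and 385 and 581 in KO normal. U17 (2437, SNORA73), an H/ACA RNA that acts in cleavage of the ribosomal RNA precursor, had 147 and 92.8 CPM in WT normal and 293 and 388 in KO normal. The groups did not overlap in any of the 3. The deposited RPKM gave the same order, for example 502 and 236 against 1552 and 1458 for transcript 975.

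With all 12 libraries, edgeR's quasi-likelihood test with Benjamini-Hochberg adjustment over 24816 transcripts called none of the 108 between KO and WT normal (background 0.0161% called), 4 had an unadjusted p under 0.05, DESeq2 called none, and limma with sample weights called 3, namely these 3. Transcript 975 differed by a log2 fold change of 1.99 ± 0.49 (SE, adjusted p = 0.408). With the 9 libraries, where both normal groups keep 2 libraries and only the shared estimate of spread changes, 3 of 108 passed, all higher (background 0.745%, and 0.222% higher), and were again these 3. Then the log2 fold change was 1.99 ± 0.32 (adjusted p = 2.86e-04) for transcript 975, 1.68 ± 0.32 (adjusted p = 0.00286) for 5108 and 1.51 ± 0.31 (adjusted p = 0.00584) for U17. All 3 also passed when the 9 libraries were scaled by total reads, where 4 passed in all, each higher (background 0.689%, and 0.234% higher). The fourth was SNORA14. As a group, 8 of the 9 scaRNA transcripts lay above 0 in this comparison, with a median of 0.90, beside 0.38 for the 108 and 0.03 for all tested transcripts. This was not particular to scaRNAs. Of the tested transcripts of at most 500 bases, a set that overlaps with the scaRNAs, 23 of 26 lay above 0, with a median of 0.83. The groups did not overlap in 48 of the 108 that were higher in KO, or 44.4%, beside 19.7% of all tested transcripts, and in 14 that were lower, beside 17.6%. By RPKM the same counts were 52 (background 22.8%) and 12 (background 15.3%).

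**Figure D3:**
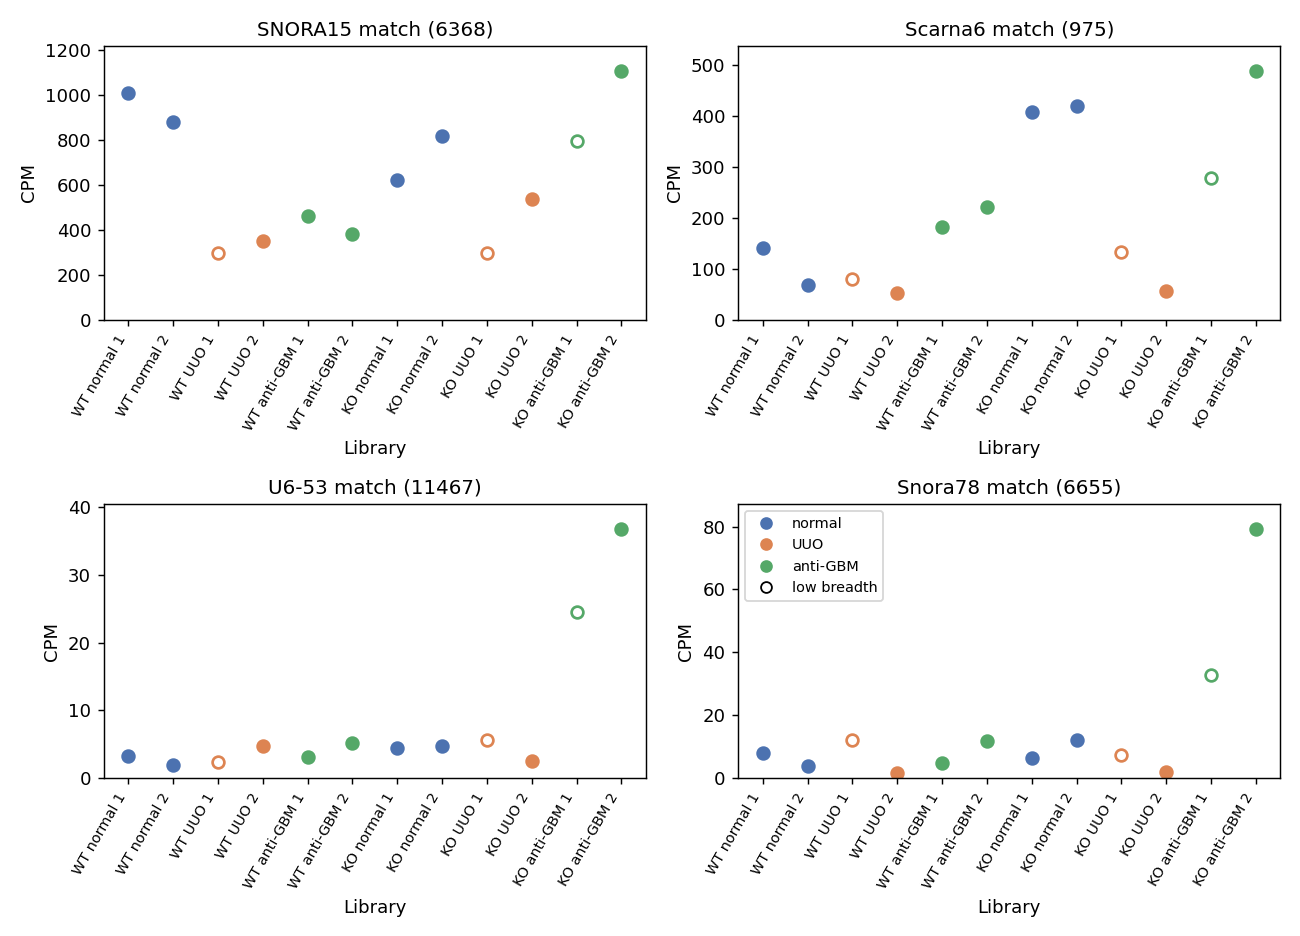
CPM (TMM) of 4 transcripts, 1 point per library, open symbols for libraries of low breadth. SNORA15 is lower in both WT UUO libraries than in WT normal, Scarna6 (975) is higher in KO normal than in WT normal, and U6-53 and Snora78 are highest in the 2 KO anti-GBM libraries.

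Obstruction of WT kidney gave the only call of the edgeR test with all 12 libraries and the low-count filter, a lower level of the SNORA15 transcript (6368, 3077 bases). SNORA15, also called ACA15, is an H/ACA guide RNA. Its transcript had 1009 and 877 CPM in WT normal and 297 and 348 in WT UUO, so the groups did not overlap. The log2 fold change was -1.55 ± 0.40 (adjusted p = 0.0375), and 1 of 108 passed beside a background of 2.42% (1.74% lower), a share below that of all transcripts. Leaving out WT UUO 1, the library of low breadth, gave -1.44 (adjusted p = 0.283). On the RPKM scale the values were 250 and 211 against 142 and 184, with no overlap, but the difference was smaller: scaled by total reads, the log2 fold change was -0.50 (adjusted p = 0.363). DESeq2 and limma called 4 and 6 of the 108, all lower, and SNORA15 was among both. The transcript also had 459 and 382 CPM in WT anti-GBM, 622 and 816 in KO normal, 298 and 538 in KO UUO, and 796 and 1106 in KO anti-GBM. In KO, the UUO values lay below normal (log2 fold change -0.78 ± 0.39, adjusted p = 0.823), and the anti-GBM values overlapped with normal.

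Among the 108 transcripts as a whole, 65 lay below 0 in WT UUO and the median log2 fold change was -0.24, beside 0.49 for all tested transcripts. The sign of the 108 depended on scaling: their median was 0.02 with DESeq2's size factors and 0.76 by total reads, but it stayed below that of all transcripts by 0.73 to 0.77. Without the 3 libraries of low breadth the median of the 108 was -0.67 beside 0.43, a gap of 1.11. The groups did not overlap in 43 that were lower (39.8%, beside 23.5% of all) and in 18 that were higher (16.7%, beside 31.0%). By RPKM, 12 did not overlap and were lower (11.1%, beside 9.35%), and 45 were higher (41.7%, beside 52.3%).

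By the rule for the largest changes with no overlap, Snord83b (8460), a C/D RNA in an intron of Rpl3, had 122 and 197 CPM in WT normal and 0.592 and 0.584 in WT UUO. It had 119 and 1.80 CPM in KO normal, so 1 of these untreated libraries was near WT normal and the other far below it. Transcript SNORA72 (925), an H/ACA RNA also called U72, had 7.86 and 101 CPM in WT normal and 0.296 and 3.67 in WT UUO, and the C/D transcript Z39 (5077) had 59.3 and 43.7 against 3.55 and 10.4. Reads on Z39 covered only 4.91% to 8.94% of its 3322 bases in any library, so its level comes from a small part of it. None of these 3 passed by edgeR (adjusted p from 0.252 to 0.344). DESeq2 called Snord83b (adjusted p = 0.00579) and SNORA72 (adjusted p = 0.0385) with the same libraries, and edgeR with no low-count filter called Z39 (adjusted p = 0.00613). With the 9 libraries, 13 of 108 passed in WT UUO, 12 of them lower (background 10.8%, with 4.46% higher and 6.35% lower), on the single remaining WT UUO library, which is assumed to vary as the others do. Among the 12 were SNORA15 (-1.44 ± 0.35, adjusted p = 0.00571), Z39, Snord17, Scarna10, scaRNA16, Snora7a and SNORD36. For Snord17 and scaRNA16 the library left out, WT UUO 1, lay above both WT normal libraries, with 787 against 778 and 318 CPM and with 431 against 370 and 181. By total reads, 16 passed, 15 of them higher (background 23.3%, with 21.2% higher and 2.11% lower), and 2 of the 13 were among them. The median of the 108 with the 9 libraries was -0.67 by TMM and 0.44 by total reads. Its sign, and which transcripts passed, thus depended on the scaling. By RPKM, WT UUO 2 still lay below both WT normal libraries for SNORA15, Z39 and SNORD36. It lay between them for Snord17, Scarna10, scaRNA16 and Snora7a.

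Obstruction of KO kidney showed the same side for more of the 108: 85 lay below 0, with a median of -0.84 beside 0.00 for all transcripts. This median was below that of all transcripts by 0.82 to 0.89 under the 3 scalings, and by 0.71 with the 9 libraries. No overlap was found in 54 that were lower, or 50.0%, beside 19.3% of all, and in 8 that were higher, or 7.41%, beside 16.7%. By RPKM, 32 were lower (29.6%, beside 11.6%) and 17 higher (15.7%, beside 26.7%). Even so, none passed with the 12 libraries (background 0.0121%); 15 had an unadjusted p under 0.05, all lower, DESeq2 called 1 (SNORA79) and limma none. SNORA79 (2426), an H/ACA transcript of 495 bases in the gene Gtf2a1, had 39.7 and 60.9 CPM in KO normal and 5.29 and 7.65 in KO UUO, a log2 fold change of -2.96 ± 0.73 (adjusted p = 0.240). Its DESeq2 adjusted p was 0.0244. It had 27.2 and 12.1 CPM in WT normal and 8.58 and 4.09 in WT UUO, again with no overlap. SNORA72 had 9.48 and 71.2 CPM in KO normal and 7.93 and 4.49 in KO UUO, and SNORA42 (1038) had 18.3 and 40.1 against 5.39 and 5.82 (adjusted p = 0.849 and 0.505).

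In the fit of 9 libraries, 13 of 108 were called lower in KO UUO and none higher (background 0.850%, and 0.423% lower), and 7 of these 13 also passed by total reads (background 1.22%, and 0.222% lower). The 7 were both Scarna6 transcripts, scaRNA16, Snord17, SNORA14 and 2 transcripts matched to SNORA79. Scarna6 transcript 975 had 57.0 CPM in KO UUO 2 against 408 and 419 in KO normal, a log2 fold change of -2.88 ± 0.44 (adjusted p = 2.04e-04), and 133 in KO UUO 1. Snord17 had 219 CPM in KO UUO 2, 900 in KO UUO 1 and 962 and 1065 in KO normal. SNORA14 had 33.1 CPM in KO UUO 2, but 225 in KO UUO 1, above the 150 and 179 of KO normal. All calls of this fit in KO UUO, by either scaling, thus rest on the single library KO UUO 2. The library left out, KO UUO 1, lay close to KO normal for Snord17 and above it for SNORA14. For scaRNA16, KO UUO 1 (456 CPM) lay between the KO normal libraries (421 and 607). Between KO and WT UUO, none of the 108 passed by edgeR with 12 libraries (background 0.00806%) or 9 (background 0.475%), nor with the 9 libraries by total reads (background 0.443%), nor by DESeq2 or limma, and 2 had an unadjusted p under 0.05 with 12. KO and WT UUO did not overlap in 9 that were higher (8.33%, beside 11.3% of all) and 11 that were lower (10.2%, beside 19.4%). By RPKM, 3 were higher (2.78%, beside 5.76%) and 21 lower (19.4%, beside 27.8%). The largest differences with no overlap were SNORA72 (log2 fold change 1.59 ± 1.65), SNORA5 (3256, 1.13 ± 0.50) and SNORA42 (1038, -0.93 ± 0.70), none called. SNORA5 had 15.1 and 31.2 CPM in WT UUO and 47.8 and 53.9 in KO UUO.

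**Figure D4:**
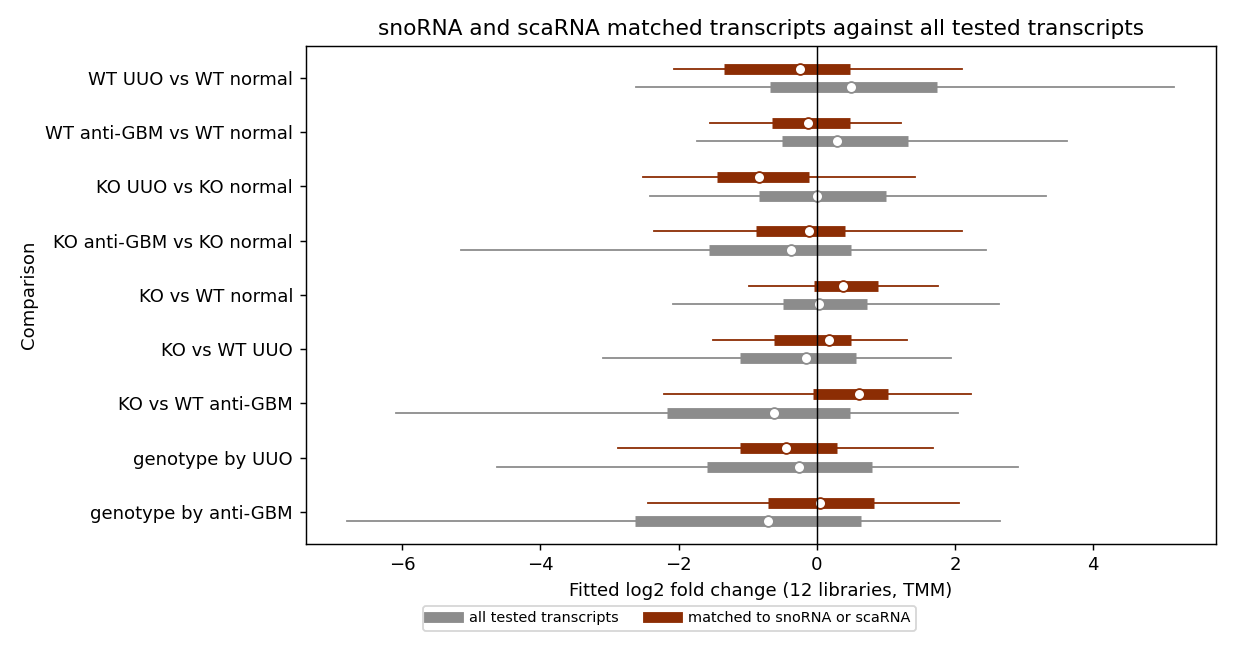
Fitted log2 fold changes of the 108 transcripts (brown) and of all 24816 tested transcripts (grey) in the 9 comparisons with 12 libraries and TMM scaling; circles are medians, thick bars the middle 50% and thin lines the 5th to 95th percentile. The medians of the 108 lie below those of all transcripts in both UUO comparisons with normal and in WT anti-GBM, and above them in the 3 comparisons of KO with WT.

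In WT anti-GBM nephritis no transcript of the 108 passed with all 12 libraries (background 0.0201%). An unadjusted p under 0.05 was found for 3, DESeq2 called none, and limma called 4, of which SNORA15, Snord91a and SNORA40 were lower and Scarna6 (975) higher. SNORA15 had 459 and 382 CPM against 1009 and 877 in WT normal (log2 fold change -1.16 ± 0.40, adjusted p = 0.473). SNORA40 (7457), an H/ACA transcript, had 23.6 and 23.4 against 61.9 and 51.0 CPM (-1.26 ± 0.52, adjusted p = 0.659). Snord83b had 8.24 and 11.8 against 122 and 197, and Z39 17.4 and 23.7 against 59.3 and 43.7, neither called. No library of low breadth is in these 2 groups. In the fit of 9 libraries 5 of 108 passed, all lower (background 6.56%, and 3.72% lower): Snord91a, SNORA15, SNORA40, Z39 and SNORA27. By total reads 12 passed, 11 of them higher (background 12.0%, with 10.9% higher and 1.04% lower), among them both Scarna6 transcripts, U17 and Snord17, and 1 of the 5, Snord91a, was also lower there. SNORA15, SNORA40, Z39 and SNORA27 did not pass by total reads. Their RPKM was still lower in WT anti-GBM than in WT normal with no overlap, for example 174 and 167 against 250 and 211 for SNORA15. For SNORA27 the difference was small, with 418 and 332 against 425 and 428. Which transcripts passed thus depended on the scaling. The median of the 108 was -0.13 beside 0.29 for all transcripts with 12 libraries, and 0.57 beside 1.02 by total reads. WT anti-GBM and WT normal did not overlap in 23 that were higher (21.3%, beside 32.7% of all) and 40 that were lower (37.0%, beside 21.9%). By RPKM, 44 were higher (40.7%, beside 54.1%) and 15 lower (13.9%, beside 8.68%).

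In KO anti-GBM nephritis a few transcripts stood above KO normal in both libraries, among them a C/D transcript matched to U6-53 (11467, MBII-28, 1615 bases), a guide RNA for U6 spliceosomal RNA. It had 24.6 and 36.8 CPM in KO anti-GBM and 1.94 to 5.60 CPM in the other 10 libraries, so both KO anti-GBM libraries stood above all others. In KO anti-GBM 1, a library of low breadth, its reads covered only 13.8% of its length, against 45.8% in KO anti-GBM 2. Snora78 (6655), in an intron of the noncoding host Snhg9, had 32.8 and 79.2 CPM in KO anti-GBM and 1.67 to 12.2 in the other 10. The snoU6-77 transcript (6358), whose snoRNA lies in an intron of the translation factor gene Eif4a1, had 301 and 1043 CPM in KO anti-GBM and 272 and 375 in KO normal, which overlap. The deposited Rfam column gives both U6 guide transcripts a signal recognition particle RNA match as well, so their identity is uncertain. MBI-1 (9435), an H/ACA transcript of 152 bases, had 7.42 and 37.2 CPM against 1.81 and 2.93. SNORA63 (312) had 2.05 and 17.2 against 1.61 and 3.16. U6-53 and Snora78 were thus high in both libraries, and the snoU6-77 and SNORA63 transcripts only in KO anti-GBM 2. MBI-1 stood above KO normal in both, but its 7.42 CPM in KO anti-GBM 1 was near the 5.57 and 4.33 CPM of WT anti-GBM. By RPKM it had 36.4 in KO anti-GBM 1, below the 42.7 and 38.3 of WT anti-GBM.

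The median of the 108 in KO anti-GBM against KO normal was -0.11 with the 12 libraries and 0.19 with the 9, beside -0.37 and -0.23 for all transcripts. None of the 108 passed with all 12 libraries (background 0.0524%); 6 higher and 2 lower had an unadjusted p under 0.05, DESeq2 called 2 (U6-53 and MBI-1, both higher) and limma none. The log2 fold change was 2.74 ± 0.77 (adjusted p = 0.433) for U6-53 and 2.60 ± 0.88 (adjusted p = 0.528) for Snora78. On the 9 libraries 5 of 108 passed, all higher (background 0.947%, and 0.492% higher), and the same 5 passed by total reads (background 0.907%, and 0.415% higher). On this fit, which rests on KO anti-GBM 2 alone, the log2 fold change was 3.01 ± 0.58 (adjusted p = 0.00457) for U6-53, 3.11 ± 0.56 (adjusted p = 0.00196) for Snora78 and 1.70 ± 0.35 (adjusted p = 0.00766) for snoU6-77. The 2 other transcripts of largest change with no overlap were lower: SNORA72 had 1.02 and 6.45 CPM against 9.48 and 71.2, and SNORA27 (8010), in the ribosomal protein gene Rpl21, had 50.9 and 280 against 569 and 566. Neither passed, and for SNORA27 the lower value is the library of low breadth. The groups did not overlap in 18 that were higher (16.7%, beside 11.7% of all) and 25 that were lower (23.1%, beside 28.6%).

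Between KO and WT anti-GBM kidney, most of the 108 stood higher in KO. With 12 libraries 79 lay above 0, and their median was 0.61 beside -0.61 for all transcripts. All 9 scaRNA transcripts lay above 0, with a median of 0.94, and 8 of 9 with the 9 libraries. Of the tested transcripts of at most 500 bases, 22 of 26 lay above 0 with 12 libraries, with a median of 0.98. The median of the 108 was above that of all transcripts by 1.22 to 1.24 under the 3 scalings, while its own sign was not stable, with 0.52 by DESeq2's size factors and -0.13 by total reads. With the 9 libraries and TMM it was 0.92 beside -0.57. None of the 108 passed with 12 libraries (background 0.0201%); 13 had an unadjusted p under 0.05, all higher, and DESeq2 and limma each called 1, U6-53. U6-53 had 3.15 and 5.19 CPM in WT anti-GBM (log2 fold change 2.87 ± 0.77, adjusted p = 0.163 by edgeR and 0.0126 by DESeq2). Snora78 had 4.85 and 11.9 CPM there (2.74 ± 0.88, adjusted p = 0.237). SNORA72 and Snord83b, the 2 other largest changes with no overlap, were lower in KO, with 1.02 and 6.45 against 107 and 32.3 CPM and with 0.256 and 2.15 against 8.24 and 11.8, and neither passed.

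With the 9 libraries, 27 of 108 passed between KO and WT anti-GBM, all higher in KO (background 7.00% in either direction and 3.80% higher), 18 of them H/ACA, 7 C/D and 2 scaRNAs. Among the 27 were Snora7a (1739 against 790 and 525 CPM, with 248 in the KO library left out), Snora70 and SNORD46, all in ribosomal protein genes, and Snord17, scaRNA21, Scarna6 (975) and SNORA15. By total reads, 7 passed (background 10.2%, with 0.802% higher and 9.40% lower), 6 of them higher and among the 27: U6-53, Snora78, snoU6-77, MBI-1, SNORA55 and SNORA79. The remaining 21 therefore depend on the scaling, and all 27 on the single library KO anti-GBM 2. The groups did not overlap in 36 that were higher with all 12 libraries (33.3%, beside 13.4% of all) and in 14 that were lower (13.0%, beside 38.2%). By RPKM 15 were higher (13.9%, beside 5.29%) and 26 lower (24.1%, beside 54.5%).

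A test of the difference between genotypes in the response to disease called none of the 108 with 12 libraries, neither for UUO (background 0.0604%; 4 at an unadjusted p under 0.05, DESeq2 and limma 0) nor for anti-GBM (background 0.0161%; 1 at an unadjusted p under 0.05, DESeq2 0, limma 1). The limma call was SNORA15, with a difference of 1.58 ± 0.40 (adjusted p = 0.0466): it was lower in WT nephritis and overlapped with normal in KO. With the 9 libraries the difference was 1.78 ± 0.42 (adjusted p = 0.0125), and 4 of 108 passed for anti-GBM, all with a positive difference (background 4.32%, and 2.02% positive), SNORA15, Z39, SNORA63 and Snora78; none passed for UUO (background 1.67%). By total reads none of these 4 passed and 3 others did, all below 0 (background 7.03%, and 6.52% below 0). For UUO, 7 passed by total reads, all below 0 (background 1.41%, and 1.03% below 0). These included both Scarna6 transcripts, U17 and SNORA14, and rest on 1 UUO library per genotype. The results of the 9 libraries for anti-GBM rest, in KO nephritis, on the single library KO anti-GBM 2. All 9 scaRNA transcripts had a difference below 0 for UUO with 12 libraries, with a median of -0.90 beside -0.25 for all transcripts, none of them called, and 8 of 9 with the 9 libraries. Of the tested transcripts of at most 500 bases, 21 of 26 lay below 0 for UUO with 12 libraries, with a median of -1.04.

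Of the remaining scaRNA transcripts, Scarna13 (6597) stayed between 66.7 and 201 CPM over the 12 libraries, scaRNA25 (7913) between 4.66 and 83.9, and Scarna17 (7973) between 0.782 and 14.6, the last highest in WT UUO 1. SNORD94 (3871), in the gene Ptcd3, had 27.8 and 9.26 CPM in WT normal and 58.7 and 61.3 in KO normal, and SNORA26 (2340) had 8.71 and 3.01 against 20.8 and 18.9; neither passed (adjusted p = 1.00 for both). The spread over libraries differed widely among the transcripts. Over the 55 with at least 10 CPM on average and no library at 0, the median ratio of the highest to the lowest library was 8.20, and 3.48 over the 9 libraries. The steadiest, picked after its values were seen, was a C/D transcript of 7510 bases with no gene name in its match (1317), at 45.7 to 77.0 CPM. SNORA72 had the widest range of the 55, at 0.296 to 107 CPM. A U3A transcript (11317, 213 bases), matched to the C/D RNA that acts in ribosomal RNA precursor cleavage, followed at 4.16 to 272 CPM, the highest value being KO anti-GBM 2.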

How the data were processed

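Whole kidney RNA of 12 libraries was depleted of ribosomal RNA and RNAs over 150 bases were used, per the labels' protocols. Reads were processed with Bowtie 0.12.7 and the mm9 build is named, per the submitters' processing notes; how transcripts were built and matched is not given in the sources used here. The authors deposited counts of uniquely mapped reads and RPKM per transcript, and, per the file headers, depth (a coverage signal) and the percent of each transcript covered. RPKM recomputed from counts, lengths and totals differed by at most 5.11e-15 in relative terms.

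The deposited counts were tested with edgeR 4.0.16 (R 4.3.3; TMM, filterByExpr, robust quasi-likelihood fit, 6 group means) over 24816 transcripts, with Benjamini-Hochberg adjustment and calls under 0.05; DESeq2 1.42.0 and limma 3.58.1 with sample quality weights were alternatives, as were other scalings, no filter, and leaving out libraries. Breadth was the covered percent divided by that of 90-base reads placed at random, in transcripts above 500 bases in length holding 20 to 200 reads; the limit was 0.5. The step was tested on simulated data. In replicate ratios, 0.5 CPM was added. Counting precision follows from 4595261 to 7342937 reads per library; replicates differed by more than counting error (chi-square per degree of freedom from 10.7 to 217), so no library was a repeat deposit.

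Named transcripts were those called, the 12 of highest mean RPKM, the 3 largest changes without overlap per comparison (10 CPM or more) and all scaRNAs; others named were chosen after their values were seen. The transcripts and lists were chosen with earlier results of these data known. Sequences and hosts came from NCBIM37 and GENCODE M1: 24 transcripts were placed by Ensembl ID and 41 by a unique symbol.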

Additional observations from a re-analysis of the deposited data

How the results depend on the processing

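No paired analysis was possible because the labels give the libraries no replicate numbers shared between groups. Counts of the 108 called changed with the setting. For WT UUO against WT normal, 1 was called in the main test, 0 with DESeq2's size factors and 0 by library size alone, 4 by DESeq2, 6 by limma, 5 with no low-count filter and 13 with the 9 libraries. For WT anti-GBM against WT normal, limma called 4 and the 9-library fit 5. For KO UUO against KO normal, DESeq2 called 1, the fit with no filter 3 and the 9-library fit 13. For KO anti-GBM against KO normal, DESeq2 called 2 and the 9-library fit 5. For KO against WT normal, limma called 3, the fit with no filter 1 and the 9-library fit 3; for KO against WT anti-GBM, DESeq2 and limma called 1 each and the 9-library fit 27. For genotype by anti-GBM, limma called 1 and the 9-library fit 4. The main test gave 0 in all of these but the first. The 9 libraries scaled by total reads, a setting added after the data were seen, gave 16, 12, 7, 5, 4, 0 and 7 calls for the 7 comparisons in the order of WT UUO, WT anti-GBM, KO UUO, KO anti-GBM, and KO against WT in normal, UUO and anti-GBM, and 7 and 3 for genotype by UUO and by anti-GBM. Leaving out 1 library at a time gave 0 to 4 calls for WT UUO, 0 to 1 for KO UUO and 0 for the other comparisons. The SNORA15 call was lost without WT normal 1, WT normal 2, WT UUO 1, WT UUO 2, KO normal 1 or KO normal 2 (adjusted p from 0.0567 to 0.327), with a log2 fold change from -1.44 to -1.67, and with DESeq2's size factors (adjusted p = 0.0556). Of 22 log2 fold changes followed through the settings, 1 reversed its sign: that of SNORA72 (925) between KO and WT UUO was -0.46 in the 9 libraries by total reads. The causes of these differences were not tested, except that fits with fewer libraries hold fewer samples by construction. Precision is limited by 2 libraries per group: a permutation test of 2 against 2 cannot go below p = 0.333, and a transcript under about 10 CPM rests on few reads.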
